A study of Caenorhabditis elegans with 8 samples.

Results

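The col genes are the numbered collagen genes of the nematode Caenorhabditis elegans, most of which encode collagens of the cuticle. All genes of the deposited tables whose symbol in the WBcel235 annotation is col followed by a hyphen and a number were taken, which gave 156 of 46904 genes. Of these, 113 passed the filter on low counts and were tested, and 43 did not and were described by their level alone. RNA of whole worms was sequenced from 4 genotypes with 2 libraries each. They were wild type (strain N2), daf-2(e1370) (strain CF1041), hel-1(gk148684) (strain IJ501) and the double mutant hel-1(gk148684); daf-2(e1370) (strain IJ1121). All were adults at day 1 grown at 20 °C, and the labels call the 2 libraries of a genotype independent biological repeats. daf-2 encodes the insulin/IGF-1 receptor, and e1370 is a mutation that lowers its function in the whole animal. hel-1 encodes a DEAD-box RNA helicase, and the labels give no more than the allele. No group carries a transgene in the labels.

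The cuticle is secreted by the epidermis beneath it and is rebuilt at each moult. Its collagens are short chains with Gly-X-Y repeats that are hydroxylated on prolines, assemble into trimers, are secreted and cleaved, and are then crosslinked through tyrosines. Sets of collagen genes peak at different points of each moulting cycle, and some are used at 1 stage only, as in the adult or the dauer larva. In long-lived daf-2 mutants, earlier work found several collagen genes to be needed for the full lifespan. The symbol is broader than the cuticle, since col-99 encodes a membrane-bound collagen with roles in neurons and the epidermis. It is also narrower, because cuticle collagens with dpy, sqt, rol, bli and lon names carry other symbols. Those were read as separate lists.

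The libraries held between 31555396 and 37552539 counts. The hel-1 transcript stood at 610 ± 12.1 CPM (counts scaled to the size of the library; SD, n = 2) for wild type, 508 ± 56.3 for daf-2, 545 ± 27.8 for hel-1 and 531 ± 6.5 for the double mutant. Its level passed the test in none of the comparisons, so it does not check the hel-1 labels. The daf-2 transcript stood at 113 ± 5.07, 141.9 ± 4.06, 113 ± 7.57 and 137 ± 6.87 CPM in the same order. It was higher in daf-2 than in wild type by 0.33 ± 0.08 on the log2 scale (standard error; edgeR's quasi-likelihood test, adjusted p = 0.0308). It passed in no other comparison. The 2 libraries of daf-2 and of wild type stood apart from each other for the col genes, and in opposite directions. Of the 113 tested col genes, 88 had their highest level in daf-2 replicate 2, and 76 had their lowest level in wild-type replicate 2. These counts were made for the col genes only. Their median log2 difference from the mean of the 8 libraries was 1.47 in daf-2 replicate 2 and -0.99 in wild-type replicate 2. Over all tested genes the medians were 0.09 and -0.03. Results that rest on these libraries are given with and without them.

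The col genes together took 1.35 and 1.01% of the counts of the wild-type libraries, 1.80 and 3.88% in daf-2, 1.75 and 1.56% in hel-1, and 1.41 and 1.48% in hel-1;daf-2. The share of daf-2 replicate 2 was the highest of the 8, and that of wild-type replicate 2 the lowest. By genotype the shares were 1.18 ± 0.243% for wild type, 2.84 ± 1.47% for daf-2, 1.66 ± 0.132% for hel-1 and 1.44 ± 0.0536% for the double mutant (SD, n = 2). In whole worms, a difference in the share of epidermal cells and one in collagen RNA per cell cannot be told apart.

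A few genes carried most of this RNA. Averaged over the 8 libraries, 26 members stood at 100 CPM or more, 42 at 10 or more and 86 at 1 or more. The 8 members with the highest level per kilobase of exon were col-119, col-140, col-122, col-20, col-124, col-93, col-178 and col-80. They held between 50.4 and 57.3% of all col counts of a library. col-119 (WBGene00000693, chromosome IV, 8978926 to 8979795 in WBcel235) led with a mean of 1609 CPM per kilobase. The col-119 level was 1302 and 1069 CPM in the wild-type libraries, 1298 and 2339 in daf-2, 1489 and 1497 in hel-1, and 1063 and 1139 in hel-1;daf-2. Replicate 1 of daf-2 thus lay within the wild-type range, and replicate 2 above every other library. The difference of daf-2 from wild type was 0.62 ± 0.25 on the log2 scale (standard error) and did not pass the test (adjusted p = 0.103).

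At the other end, the 43 untested members reached a mean of at most 0.239 CPM (col-115). For 3 of them, col-55, col-35 and col-185, no count was seen in any library, where 3 counts correspond to between 0.0748 and 0.0945 CPM. col-2, a collagen of the dauer larva in earlier work, was also untested. By position, chromosome IV held 41 members, V 31, X 27, II 24, I 21 and III 12. Of the 21 members on chromosome I, 11 were tested and 0 reached 100 CPM. Each of the other chromosomes held between 3 and 7 members at or above that level.

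Neighbouring col genes often differed widely in level. With a gap of at most 10000 bases between neighbours, 50 members formed 21 clusters, the largest with 5 genes, and 106 stood alone. On chromosome II, col-20 (4869670 to 4870791) stood at a mean of 1091 CPM per kilobase between col-17 at 1.86 and col-73 at 7.72. In a second cluster on chromosome II, col-80 (10707201 to 10708287) stood at 895 CPM per kilobase, next to col-39 at 13.02 and col-79 at 0.290. Where genes overlap or are near copies, reads can only be divided between them by estimate, so such counts are uncertain. Among the members, 7 overlap the exons of a second gene on their strand by 20 bases or more and 34 those of a gene on the opposite strand. The strand setting of the counting is not stated. The counts of 42 members were not whole in at least 1 library. col-126 and col-127, neighbours on chromosome IV, had identical levels in all libraries except hel-1 replicate 1, so their values are uncertain.

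**Figure D1:**
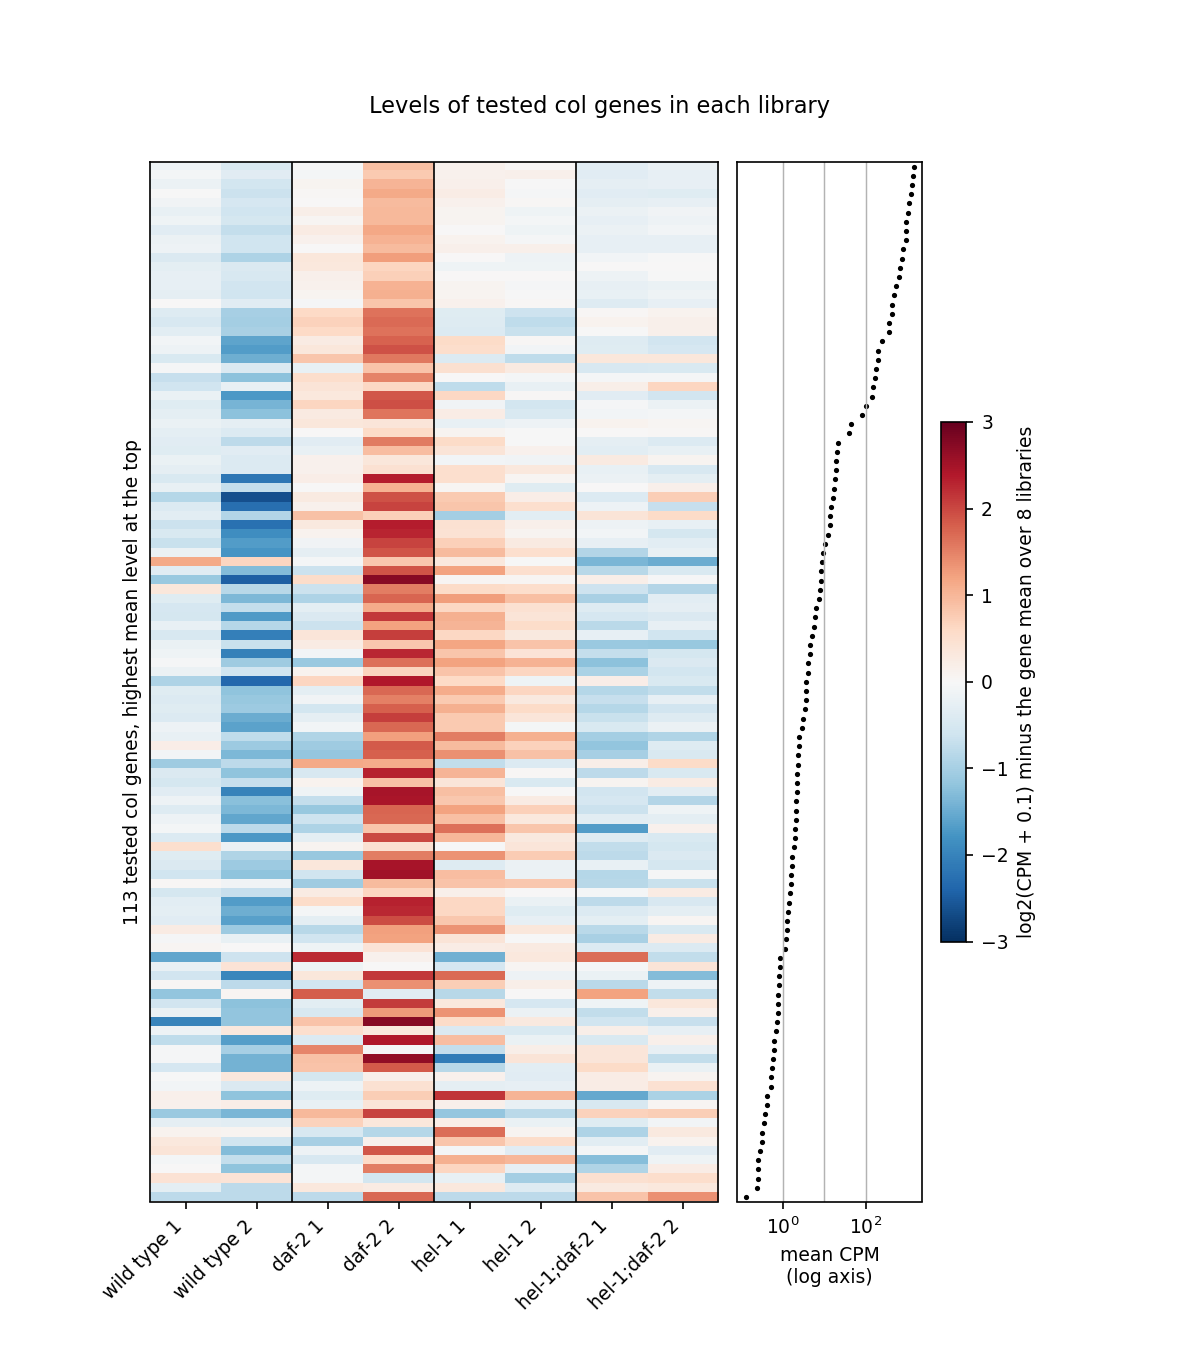
Level of each of the 113 tested col genes (one line per gene) in each of the 8 libraries (columns), as log2(CPM + 0.1) minus that gene's mean over the libraries, with the mean CPM on a log axis at the right. daf-2 replicate 2 is the highest library for 88 of these genes and wild-type replicate 2 the lowest for 76, counts made for the col genes only.

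The replicates of wild type and of daf-2 differed by more than those of the other genotypes. The log2 difference of replicate 2 from replicate 1 had a median of 1.43 over the tested col genes in daf-2, against 0.03 over all 13722 tested genes. It was above 0 for 103 of 113 members, above 1 for 70 and above 2 for 36. A difference above 1 was seen in 61.9% of tested col genes and in 15.2% of all tested genes. In wild type the median was -0.69, with 102 of 113 members lower in replicate 2, against 0.01 over all tested genes. In hel-1 the median was -0.34 with 94 members lower in replicate 2, and in hel-1;daf-2 it was 0.10 with 36 lower. These are 1 pair of libraries per genotype, so the differences have no test.

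The size of the replicate difference in daf-2 varied with the level of the gene. Its median was 1.15 for the 27 tested members under 1 CPM, 2.19 for the 44 between 1 and 10 CPM, 1.32 for the 16 between 10 and 100 CPM and 0.93 for the 26 at 100 CPM or more. Over all tested genes of these levels the medians were 0.75, 0.34, -0.10 and -0.22, so the difference varied with level there too. The levels are means over the 8 libraries, daf-2 replicate 2 among them, so the level groups are not independent of the difference. Over the 113 members, the mean log2 level and the daf-2 difference had a Spearman correlation of -0.20. The members of 1 to 10 CPM were also those with the largest drop in wild-type replicate 2, with a median of -0.997, compared with -0.41 for the members at 100 CPM or more. Over all tested genes of these 2 levels the wild-type medians were -0.08 and 0.04. Across the 113 genes, the replicate difference of daf-2 and that of wild type had a Spearman correlation of -0.64, a description over genes that share the same 4 libraries. As 102 members were lower in wild-type replicate 2 and 103 higher in daf-2 replicate 2, most had to be both, whatever this correlation. Over all tested genes, the deviations of the same libraries from their genotype means had a Pearson correlation of -0.448.

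Among members with at least 5 CPM in the higher library, the largest replicate differences in daf-2 were those of col-60, col-120, col-175, col-168 and col-104. col-60 stood at 0.820 CPM in daf-2 replicate 1 and at 8.18 in replicate 2, against 1.25 and 0.528 in the wild-type libraries. daf-2 replicate 1 thus lay between the wild-type libraries, and replicate 2 was far above both. col-175 stood at 0.694 and 6.03 CPM in daf-2 and at 1.57 and 0.590 in wild type, the same order of libraries. In wild type the largest differences were those of col-12, col-147, col-167, col-39 and col-117. col-147 stood at 8.26 CPM in wild-type replicate 1 and 2.20 in replicate 2, and at 12.01 and 44.7 CPM in daf-2.

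Of the 113 tested members, 10 had the lower daf-2 level in replicate 2, and 3 of these differed by more than 1 on the log2 scale. These 3, col-74, col-121 and col-165, were chosen after their values were seen. col-165 stood at 2.87 CPM in daf-2 replicate 1 and 0.598 in replicate 2, and at 1.92 and 0.282 CPM in hel-1;daf-2. col-74 stood at 2.33 and 0.449 CPM in daf-2 and at 1.503 and 0.314 CPM in hel-1;daf-2, again higher in replicate 1 of both strains. In wild type and hel-1, col-74 and col-165 were instead higher in replicate 2.

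The furrow collagens, a set of dpy genes whose products form the circular furrows of the cuticle, were also mostly higher in daf-2 replicate 1. dpy-7 stood at 2.36 CPM in daf-2 replicate 1 and 0.972 in replicate 2, and at 0.436 and 0.714 CPM in wild type. dpy-2, dpy-3 and dpy-10 had the same order of the daf-2 libraries, whereas dpy-9 was higher in replicate 2. The median replicate difference of the 6 furrow collagens in daf-2 was -0.47, against 1.43 for the col genes. These 6 genes stood at 6.90 CPM or less in every library.

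**Figure D2:**
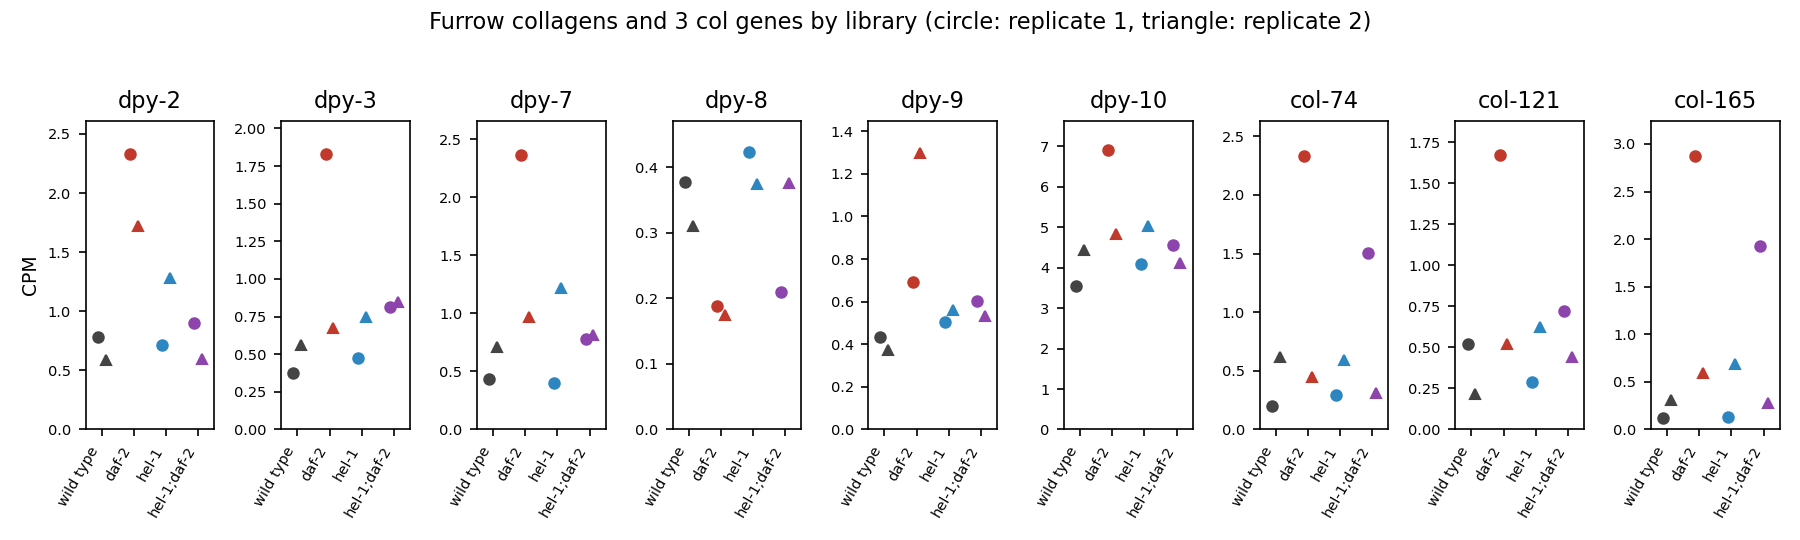
CPM of the 6 furrow collagens and of col-74, col-121 and col-165 in each library (circles, replicate 1; triangles, replicate 2), 1 panel per gene with its own axis from 0. In daf-2, replicate 1 lies above replicate 2 in every panel except dpy-9, and the 2 dpy-8 libraries lie close together.

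**Figure D3:**
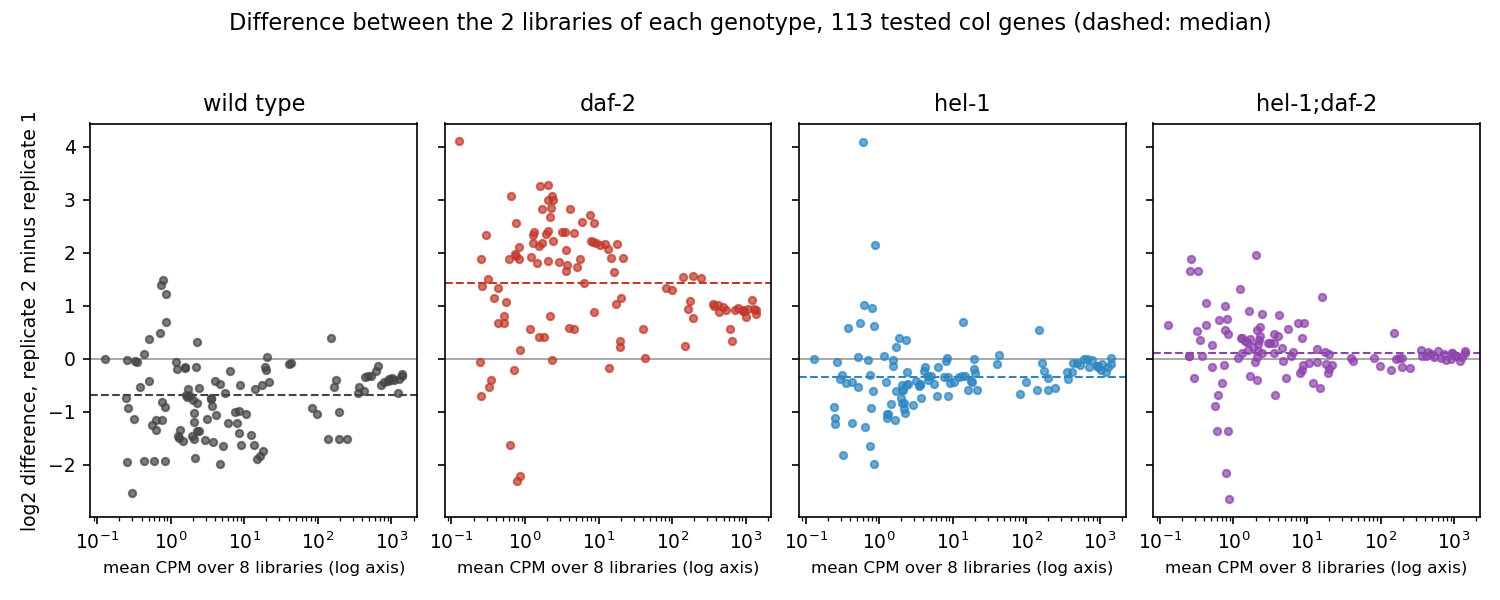
Log2 difference of replicate 2 from replicate 1 within each genotype (vertical axis) against mean CPM over 8 libraries (log axis) for the 113 tested col genes, 1 panel per genotype. The dashed medians lie at -0.69 for wild type, 1.43 for daf-2, -0.34 for hel-1 and 0.10 for the double mutant.

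The first comparison asked which col genes differ when insulin/IGF-1 receptor function is lowered. Of the 113 tested col genes, 41 rose in daf-2 and 0 fell, and 72 did not pass (edgeR's quasi-likelihood test, adjusted p under 0.05). Over all tested genes 12.1% rose and 7.21% fell. For the fallen col genes, the count at an unadjusted p under 0.05 was also 0, and DESeq2 called 0. For 8 members DESeq2 gave no adjusted p here. The median difference of the tested col genes was 1.47 on the log2 scale, and that of all genes 0.10. Some members passed the filter only through libraries in which they were high, and 10 of the 113 were below its level of 0.296 CPM in both wild-type libraries. Of the 89 members at or above that level in both wild-type libraries, 37 rose and 0 fell, with a median of 1.29, and 11.5% of the 11884 genes that met the same condition rose. Both daf-2 libraries were above both wild-type libraries for 72 members (35.7% of all tested genes) and below for 2 (28.9%).

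The count depended on single libraries. Without daf-2 replicate 2, 20 of 114 tested col genes rose (6.34% of all genes) and the median was 0.52. Without daf-2 replicate 1, 99 of 123 rose, beside 25.3% of all genes. Without wild-type replicate 1 the count was 11 of 123 (2.44% of all genes), and without wild-type replicate 2 it was 3 of 123 (1.55%), a share near that of all genes. Without hel-1 replicate 1 it was 24 of 122 (7.64%), and without hel-1 replicate 2 it was 23 of 123 (7.55%). It was 17 of 123 without either hel-1;daf-2 library (5.11 and 5.08%). The number of genes called overall thus moved between these fits too. With wild-type replicate 2 and daf-2 replicate 2 both left out, a fit chosen after the data were seen, 13 members rose and 2 fell, against 2.79 and 1.89% of all genes, and the median was 0.24. All 13 were among the 41. In that fit 1 library stands for each of wild type and daf-2 and is assumed to vary like the other groups.

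The 3 genes col-116, col-142 and col-155 passed in each of the 8 fits that left out 1 library. col-155 (chromosome V, 11388852 to 11389876) stood at 36.7 and 34.9 CPM in wild type, 53.5 and 54.3 in daf-2, 36.1 and 37.997 in hel-1, and 45.5 and 43.9 in hel-1;daf-2. Wild type and hel-1 overlap, the daf-2 libraries lie above all others, and those of hel-1;daf-2 lie in between. It rose by 0.59 ± 0.07 in daf-2 (adjusted p = 0.00218), the smallest adjusted p among the col genes. col-116 (chromosome IV, 8355906 to 8357919) stood at 0.872 and 1.09 CPM in wild type, 4.38 and 4.34 in daf-2, 1.11 and 1.43 in hel-1, and 2.19 and 2.95 in hel-1;daf-2. Its daf-2 libraries, at nearly the same level, again lie above all others, and those of hel-1;daf-2 in between. Unlike for col-155, both wild-type libraries lie below both hel-1 libraries. col-116 rose by 2.15 ± 0.27 (adjusted p = 0.00365). It shares 508 exon bases with F17E9.2 on the same strand, so part of its counts can only be divided between the genes by estimate.

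col-142 (chromosome V, 6831177 to 6832256) stood at 115.8 and 57.7 CPM in wild type, 282 and 481 in daf-2, 120.7 and 93.5 in hel-1, and 201 and 203 in hel-1;daf-2. Every library with the daf-2 mutation was above every library without it. col-142 rose by 2.14 ± 0.35 in daf-2 (adjusted p = 0.00987), and by 1.29 with both replicates 2 left out (adjusted p = 0.0163). The other members with the smallest adjusted p were col-94 (2.01 ± 0.29, adjusted p = 0.0065), col-101 (0.85 ± 0.12, adjusted p = 0.00674), col-98 (1.99 ± 0.32, adjusted p = 0.00953) and col-42 (1.85 ± 0.32, adjusted p = 0.0124). Each of these 4 lost its call only without wild-type replicate 2 among the fits that left out 1 library. col-98 stood at 220 and 151 CPM in wild type, 490 and 984 in daf-2, 235.3 and 181 in hel-1, and 326 and 337 in hel-1;daf-2, in the same order of genotypes as col-142. Little RNA stood behind col-85, which had 3 counts in the wild-type libraries together and 70 in those of daf-2. Its ratio of daf-2 to wild type was 21.6, with a 95% exact counting interval from 7.11 to 107, and its call was lost without either wild-type library.

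**Figure D4:**
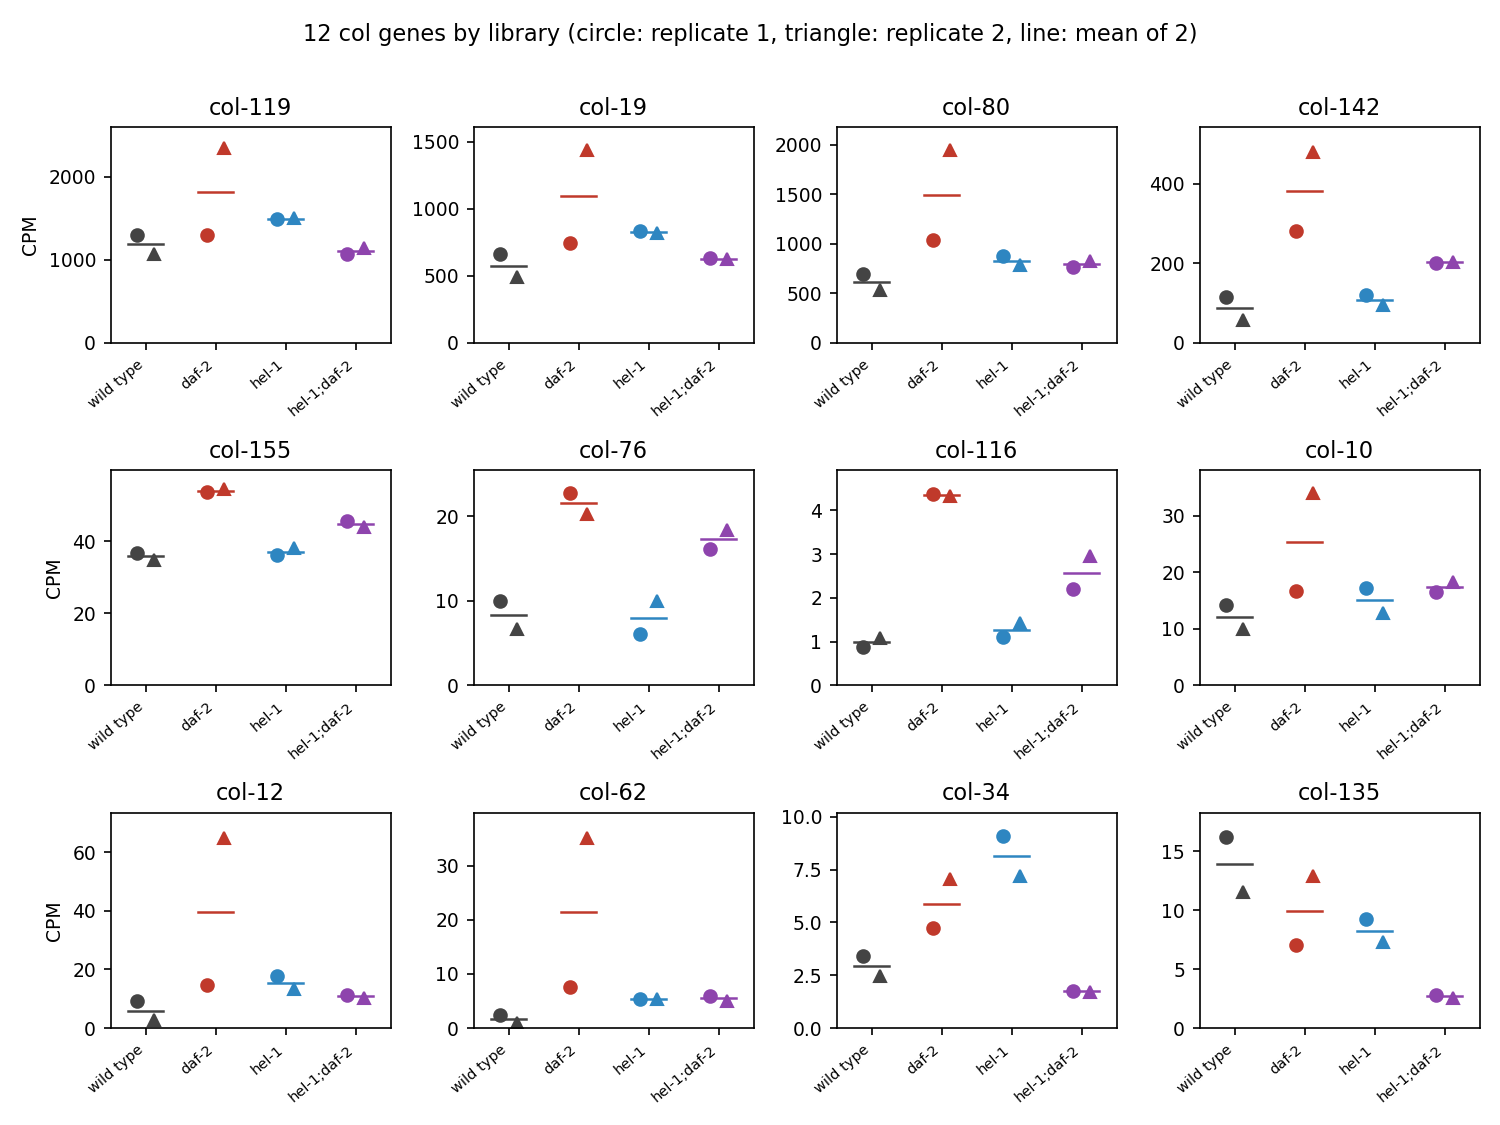
CPM of 12 col genes in each library (circles, replicate 1; triangles, replicate 2; lines, mean of 2), 1 panel per gene with its own axis from 0. The daf-2 libraries of col-155, col-76 and col-116 lie close together, while those of col-119, col-19, col-80, col-10, col-12 and col-62 lie far apart with replicate 2 on top.

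The largest called fold changes with at least 5 CPM in daf-2 belonged to genes whose daf-2 libraries were far apart. col-62 stood at 2.35 and 0.869 CPM in wild type, 7.63 and 35.1 in daf-2, 5.36 and 5.42 in hel-1, and 5.89 and 5.05 in hel-1;daf-2. The daf-2 libraries lay above all others, but replicate 1 was close to the hel-1 and hel-1;daf-2 levels. col-62 rose by 3.72 ± 0.72 (adjusted p = 0.0169), and by 1.69 with both replicates 2 left out (adjusted p = 0.0169). The col-62 call was lost without either wild-type library. col-146 (3.39 ± 0.71), col-39 (2.91 ± 0.69), col-117 (2.81 ± 0.72) and col-133 (2.59 ± 0.69) also rose, and col-146, col-39, col-117 and col-133 all lost their calls without daf-2 replicate 2 and without either wild-type library. col-12 rose by 2.74 ± 0.72 (adjusted p = 0.0375) and was called in 1 of the 8 fits that left out 1 library, the one without daf-2 replicate 1. Its levels were 9.16 and 2.73 CPM in wild type, 14.5 and 65.0 in daf-2, 17.9 and 13.2 in hel-1, and 11.2 and 10.4 in hel-1;daf-2.

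The called members were spread unevenly over levels. Among the 26 tested members at 100 CPM or more, 17 rose (6.08% of all genes of that level), and 12 rose without daf-2 replicate 2. Of the 16 members between 10 and 100 CPM, 13 rose (12.3% of all genes of that level), and 4 without that library. Of the 44 members between 1 and 10 CPM, 8 rose, a share of 18.2% beside 17.8% of all genes of that level, and 2 without that library. Of the 27 members under 1 CPM, 3 rose, or 11.1% beside 8.42%, and 2 without that library. col-80 stood at 688 and 531 CPM in wild type, 1033 and 1944 in daf-2, 870 and 786 in hel-1, and 767 and 825 in hel-1;daf-2. The daf-2 libraries were above the other 6. It rose by 1.29 ± 0.27 (adjusted p = 0.0209), and by 0.59 with both replicates 2 left out (adjusted p = 0.0315), and the call was lost when either wild-type library alone was left out. Of the 8 members with the highest level per kilobase, col-80, col-93 (1.03 ± 0.25, adjusted p = 0.0292) and col-122 (0.99 ± 0.28, adjusted p = 0.0441) rose. col-122 was called in 1 of the 8 fits that left out 1 library, and col-93 in 3.

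The stage-restricted and lifespan-linked members were read by name. col-19 and col-7 are used mainly in the adult in earlier work. col-19 stood at 664 and 488 CPM in wild type, 745 and 1443 in daf-2, 830 and 820 in hel-1, and 629 and 622 in hel-1;daf-2. Its libraries in daf-2 were above those in wild type, but replicate 1 was below both hel-1 libraries. The difference of 0.93 ± 0.28 from wild type did not pass (adjusted p = 0.0527), and it was 0.17 with both replicates 2 left out. col-7 stood at 2.70 and 0.838 CPM in wild type, 4.89 and 16.3 in daf-2, 5.89 and 4.68 in hel-1, and 3.19 and 2.48 in hel-1;daf-2, and rose by 2.58 ± 0.65 in daf-2 (adjusted p = 0.0333). That call was lost in 7 of the 8 fits that left out 1 library. The members whose log2 profile over the 8 libraries was most like that of col-19 were col-20, col-122, col-140, col-181 and col-184, with Pearson coefficients between 0.979 and 0.992 over 8 libraries, all of which share the high daf-2 replicate 2.

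col-10, col-13 and col-120 were needed for the long life of daf-2 mutants in earlier work. col-10 stood at 14.2 and 10.03 CPM in wild type, 16.7 and 34.03 in daf-2, 17.2 and 12.8 in hel-1, and 16.6 and 18.2 in hel-1;daf-2. Its replicate 1 in daf-2 lay within the range of the hel-1 and hel-1;daf-2 libraries. The difference from wild type was 1.07 ± 0.32 and did not pass (adjusted p = 0.0534). col-13, a neighbour and close copy of col-12 on chromosome V, stood at 5.06 and 2.45 CPM in wild type and at 7.47 and 33.2 in daf-2, and rose by 2.44 ± 0.64 (adjusted p = 0.0371), a call that held in 1 of the 8 fits that left out 1 library. Without daf-2 replicate 2, 0 of the 3 passed and their median difference was 0.48, against 2.44 with all libraries. col-120 stood at 0.669 and 0.404 CPM in wild type and at 0.662 and 6.56 in daf-2, so its replicate 1 in daf-2 lay within the wild-type range, and its difference of 2.75 ± 0.97 did not pass (adjusted p = 0.0775). col-144 (0.82 ± 0.31, adjusted p = 0.0902) and col-99 (0.09 ± 0.32, adjusted p = 0.859) did not pass either.

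Collagens and cuticle genes with other names were read beside the col genes. Of the 6 furrow collagens, dpy-2 rose in daf-2 (1.55 ± 0.40, adjusted p = 0.0366), and the list had a median of 1.35, or 1.29 without daf-2 replicate 2, when 2 of the 6 passed. Of 14 other cuticle collagens with mutant names, bli-6 (2.69 ± 0.45, adjusted p = 0.011) and dpy-14 (1.62 ± 0.46, adjusted p = 0.0457) rose and 12 did not pass. The median of these 14 was 0.85, and -0.37 without daf-2 replicate 2, when 4 rose and 1 fell. Over all tested genes 12.1% rose, or 6.34% without that library, and the counts of the short lists are read beside these shares. bli-6, a collagen gene named for its blistered mutants, stood at 7.47 and 3.76 CPM in wild type, 22.5 and 50.2 in daf-2, 13.02 and 8.38 in hel-1, and 11.9 and 15.3 in hel-1;daf-2.

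Of 17 genes for collagen modification, secretion and crosslinking, 3 rose in daf-2, with a median of 0.38, and 1 did so without daf-2 replicate 2, so the shares of 17.6 and 5.88% were near those of all genes. They were dpy-31 (1.22 ± 0.25, adjusted p = 0.0204), a protease that cleaves procollagen ends, doxa-1 (1.33 ± 0.36, adjusted p = 0.0394), a partner of the dual oxidase that crosslinks cuticle, and dpy-18 (0.44 ± 0.10, adjusted p = 0.0287), a prolyl hydroxylase subunit. Of 9 tested genes for other cuticle and apical matrix proteins, cut-4, cut-6 and noah-1 rose. These had a median of 0.71, and 2 rose without daf-2 replicate 2. Of 10 basement membrane genes 2 rose, or 1 without that library, and of 20 moulting genes 5 rose, or 4 without it. Among 21 regulators of epidermal and collagen genes 3 rose, a share of 14.3%, close to that of all genes. They were elt-3 (1.18 ± 0.24, adjusted p = 0.0203), a GATA factor of the epidermis, bed-3 (1.02 ± 0.24, adjusted p = 0.0278), a zinc finger factor of moulting, and blmp-1 (0.53 ± 0.15, adjusted p = 0.047), a zinc finger factor of the epidermis.

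The summed levels of markers of several tissues also differed between libraries. Of 17 tested epidermis markers other than collagens, 6 rose and 2 fell in daf-2, beside 12.1 and 7.21% of all genes. Without daf-2 replicate 2 the counts were again 6 and 2, beside 6.34 and 3.67%. These markers summed to 687 and 609 CPM in wild type and to 813 and 1004 in daf-2. The sums were 718 and 723 CPM in hel-1, and 695 and 685 in hel-1;daf-2. At most 1 of these 17 was at 0 in a library. Of 14 body wall muscle markers 4 rose, or 2 without daf-2 replicate 2, with sums of 2482 and 2174 CPM in wild type, 2784 and 5406 in daf-2, and 2501 to 2687 in the other 4 libraries. Of 9 tested pharynx markers 1 rose, or 0 without that library, and they summed to 19.4 CPM in daf-2 replicate 1, 143.5 in replicate 2, and 14.4 to 23.9 elsewhere. The 23 tested sperm markers summed to 184 and 48.6 CPM in wild type, 62.5 and 172 in daf-2, 152 and 122 in hel-1, and 54.9 and 53.9 in hel-1;daf-2. Neither the sperm nor the 13 oocyte and germline markers held a called gene, while 2 of 19 neuron markers rose, and 1 of 12 intestine markers rose and 2 fell. The intestine markers, which include the yolk protein genes vit-1 to vit-6, summed to 79358 CPM in daf-2 replicate 2 and to between 100195 and 136933 in the other libraries. Muscle markers were at 0 in no library, and in each of the pharynx and sperm lists at most 1 gene was at 0 in a library. Their part in the col result was not tested.

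In hel-1 against wild type, 0 of 113 tested col genes passed in either direction (edgeR's quasi-likelihood test). Of all tested genes 0.364% rose and 0.051% fell. At an unadjusted p under 0.05 there were 26 higher and 1 lower, or 23.9% beside 12.2% of all genes in either direction. DESeq2 called 5 higher and 0 lower, beside 1.55 and 0.24% of all genes, and gave no adjusted p for 16 of the 113. The median difference was 0.90, against 0.02 over all genes, and 0.57 with both replicates 2 of wild type and daf-2 left out. Both hel-1 libraries were above both wild-type libraries for 82 members (30% of all tested genes) and below for 3 (29.2%). The smallest adjusted p was 0.073, for col-34. Without daf-2 replicate 2, a library outside this comparison that enters the shared estimate of spread, 16 of 114 rose (2.95% of all genes), and 16 of 123 without daf-2 replicate 1 (2.55%).

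The double mutant was compared with daf-2 to ask whether the helicase mutation alters collagen genes in the daf-2 background, and 0 members passed (edgeR's quasi-likelihood test). Of all tested genes 0.0146% rose and 0.0364% fell. At an unadjusted p under 0.05 there were 67 lower and 0 higher, or 59.3% beside 16.8% of all genes in either direction. DESeq2 called 16 lower and 0 higher, beside 1.77 and 0.0947% of all genes, and gave no adjusted p for 14 members. Both hel-1;daf-2 libraries were below both daf-2 libraries for 67 members (28.5% of all tested genes) and above for 1 (24.8%). The median was -1.14, but -0.25 without daf-2 replicate 2. Without daf-2 replicate 1, 88 of 123 fell, beside 19% of all genes, and without daf-2 replicate 2 the count was 0. For col-119, col-19 and col-120 the levels in hel-1;daf-2 were thus far below those of daf-2 replicate 2, while those of col-120 at 0.541 and 1.04 CPM spanned the 0.662 CPM of daf-2 replicate 1. Both this comparison and that of daf-2 with wild type use the daf-2 libraries.

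In hel-1;daf-2 against hel-1, 4 members fell and col-76 rose (2.65% of all tested genes fell and 2.97% rose). The median of the tested members was -0.53. Both hel-1;daf-2 libraries were below both hel-1 libraries for 64 members (34.5% of all tested genes) and above for 16 (32.4%). The members that fell were col-34 (-2.22 ± 0.28, adjusted p = 0.00503), col-153 (-1.54 ± 0.28, adjusted p = 0.0231), col-135 (-1.62 ± 0.32, adjusted p = 0.0277) and col-118 (-0.77 ± 0.15, adjusted p = 0.0278). With both replicates 2 of wild type and daf-2 left out of the shared estimate of spread, 47 members fell and 10 rose, against 10.8 and 9.46% of all genes. Neither library left out belongs to this comparison, and the median was -0.54. With only daf-2 replicate 2 left out 22 of 114 fell (7.73% of all genes), and with only daf-2 replicate 1 left out 21 of 123 (7.01%). Without hel-1 replicate 1, hel-1 replicate 2 or hel-1;daf-2 replicate 1, 1 member fell (1.02, 0.797 and 0.535% of all genes), and without hel-1;daf-2 replicate 2 the count was 0 (0.495%). lon-3, a cuticle collagen that sets body length, also fell (-2.91 ± 0.62, adjusted p = 0.0369), from 1.299 and 1.06 CPM in hel-1 to 0.150 and 0.157 in hel-1;daf-2. Those last levels are low, as 3 counts correspond to 0.0902 and 0.0941 CPM in these libraries. It was the 1 gene called of the 14 other cuticle collagens with mutant names, and 8 of them fell without daf-2 replicate 2.

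col-76 (chromosome II, 8204339 to 8207495) stood at 9.91 and 6.71 CPM in wild type, 22.7 and 20.2 in daf-2, 6.10 and 9.91 in hel-1, and 16.1 and 18.3 in hel-1;daf-2. All libraries with the daf-2 mutation were above all those without it. col-76 rose in daf-2 against wild type (1.37 ± 0.25, adjusted p = 0.0147; lost without wild-type replicate 2) and in hel-1;daf-2 against hel-1 (1.11 ± 0.25, adjusted p = 0.0468). The second call was lost without wild-type replicate 2, without hel-1 replicate 1 and without either hel-1;daf-2 library.

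In total 12 members had all 4 libraries with the daf-2 mutation above all 4 without it, a share of 10.6% beside 11.4% of all tested genes. They were col-42, col-76, col-85, col-89, col-95, col-96, col-98, col-101, col-103, col-116, col-142 and col-155. The opposite order was seen for 0 members, beside 9.73% of all tested genes. Both daf-2 libraries stood above the other 6 for 28 members, or 24.8% beside 10.8% of all tested genes, and both wild-type libraries below the other 6 for 25 members, or 22.1% beside 13.3%. Both hel-1 libraries stood above the other 6 for 4 members, or 3.54% beside 4.99% of all tested genes, and both hel-1;daf-2 libraries below the other 6 for 6 members, or 5.31% beside 6.17%. These orders are descriptions with no test.

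In hel-1;daf-2 against wild type, col-155 (0.32 ± 0.07, adjusted p = 0.0381) and col-116 (1.39 ± 0.27, adjusted p = 0.0315) rose, as did col-85, with 30 counts against 3 and a ratio of 10.2 (95% exact counting interval 3.18 to 52.3). Over all tested genes 3.09% rose and 1.17% fell. Without daf-2 replicate 1, 15 of 123 rose (7.21% of all genes), and without daf-2 replicate 2, 16 of 114 (8.71%). Without either wild-type or either hel-1;daf-2 library 0 did, beside 0.632 to 0.899% of all genes. The median of the col genes was 0.28, and -0.02 with both replicates 2 of wild type and daf-2 left out. Both hel-1;daf-2 libraries were above both wild-type libraries for 41 members (33.3% of all tested genes) and below for 8 (29.1%).

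The gene that fell in this comparison was col-135. col-135 (chromosome IV, 15129655 to 15131797) stood at 16.2 and 11.6 CPM in wild type, 7.03 and 12.9 in daf-2, 9.23 and 7.29 in hel-1, and 2.80 and 2.57 in hel-1;daf-2. The double mutant was below all other libraries, and the daf-2 libraries overlapped those of wild type and hel-1. It fell by 2.37 ± 0.32 on the log2 scale (adjusted p = 0.00764). That call was lost without either hel-1;daf-2 library.

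**Figure D5:**
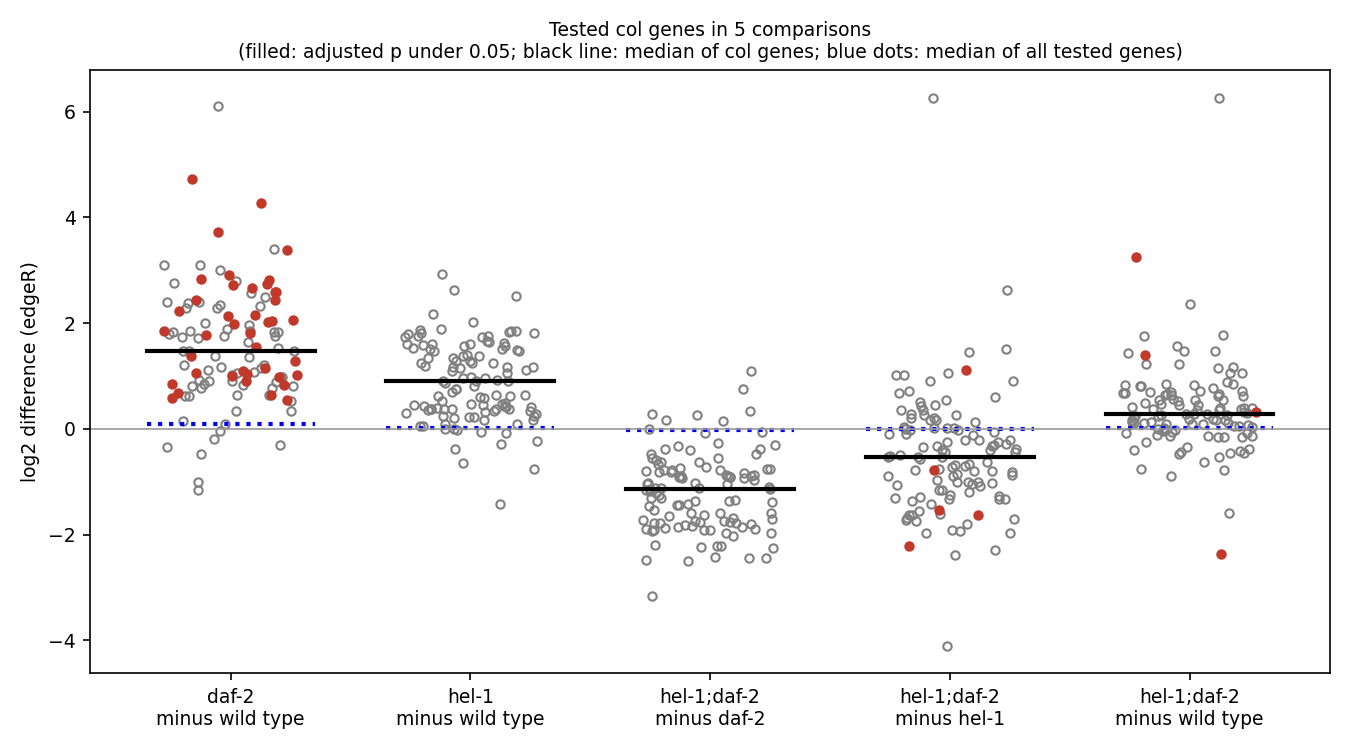
Log2 differences (vertical axis) of the 113 tested col genes in the 5 comparisons (columns), with genes past an adjusted p of 0.05 filled, the median of the col genes as a black line and that of all tested genes as a dotted line. The medians run from 1.47 for daf-2 against wild type to -1.14 for the double mutant against daf-2, and most filled points, 41, are in the first column.

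Whether the hel-1 mutation acts differently in the 2 backgrounds was tested by the interaction, the difference of hel-1;daf-2 from daf-2 minus that of hel-1 from wild type. It was below 0 and passed for 3 of 113 members, col-34, col-118 and col-153, and above 0 for 0, whereas 0.751% of all tested genes passed below 0 and 0.0729% above. At an unadjusted p under 0.05, edgeR's quasi-likelihood test gave 83 below 0 and 1 above, or 74.3% beside 27.7% of all genes in either direction. DESeq2 called 34 below 0 and 0 above, beside 4.21 and 0.299% of all genes, and gave no adjusted p for 10 members. Without daf-2 replicate 1, 88 members passed below 0 and 1 above, beside 21.6 and 24.2% of all genes. At most 1 passed in any fit that left out a library of another genotype. The median was -2.04, and -0.69 with both replicates 2 of wild type and daf-2 left out. col-34 (chromosome IV, 4243545 to 4244610) stood at 3.43 and 2.45 CPM in wild type, 4.73 and 7.03 in daf-2, 9.07 and 7.20 in hel-1, and 1.77 and 1.73 in hel-1;daf-2. Each single mutant was above wild type, and the double mutant was below all 6 other libraries. The interaction of col-34 was -3.22 ± 0.38 (adjusted p = 0.0184), and -2.68 with both replicates 2 left out (adjusted p = 0.0374).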

How the data were processed

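RNA-seq of whole worms gave 1 table per library, 8 in all. Each deposited table gives expected counts that RSEM estimated for every gene, per the file headers. The submitters' processing notes name RSEM 1.3.1, TopHat2, Bowtie, HTSeq and edgeR and the builds WBcel235 and ce11. The aligner behind these counts and the strand setting are not given in the sources used here.

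Expected counts were rounded, with 2.03 to 2.79% of values per library not whole. edgeR 4.0.16 (R 4.3.3) was used with TMM scaling, filterByExpr and the quasi-likelihood test on 1 model of 4 genotype means, with Benjamini-Hochberg adjustment over 13722 genes and a threshold of 0.05. Values after ± are standard errors for log2 differences and SDs for levels. Symbols and coordinates come from the WBcel235 annotation, which holds 46817 of the 46904 gene identifiers and not the other 87. Intervals cover counting error only. The pipeline was tested on simulated counts that gave every gene the same spread, a biological coefficient of variation of 0.168. The simulation thus does not cover replicate differences as wide as those of the col genes in daf-2.

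The members and gene lists were chosen with earlier results of these data known. Named genes are members with a role in earlier work, the 8 with the highest level per kilobase, per comparison up to 8 called per direction by adjusted p and up to 6 by fold change with at least 5 CPM, the 5 largest replicate differences in wild type and daf-2, up to 3 per list by adjusted p, and the 5 most like col-19. Other names illustrate a stated count and were chosen after their values were seen. Alternatives were RLE scaling, library totals, no filter, DESeq2 1.42.0, a replicate block, only the groups compared, and libraries left out. Genes to which DESeq2 gave no adjusted p were counted as not called. Replicate numbers were not taken as pairs.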

Additional observations from a re-analysis of the deposited data

Results flagged for a closer look

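For 3 col genes the effect of the hel-1 mutation differed between the wild-type and daf-2 backgrounds by a test of the difference itself, the interaction term in edgeR's quasi-likelihood test. The interaction was -3.22 for col-34 (adjusted p = 0.0184), with a hel-1 difference of 1.47 ± 0.26 in the wild-type background and -1.75 ± 0.27 in the daf-2 background. It was -1.42 for col-118 (adjusted p = 0.0324), with 0.76 ± 0.15 and -0.66 ± 0.15. It was -2.34 for col-153 (adjusted p = 0.0475), with 1.16 ± 0.28 and -1.18 ± 0.28. None of these hel-1 differences within a background passed by itself in the same test, with adjusted p from 0.073 to 0.247. The median interaction of the 113 tested col genes was -2.04, so the 3 genes share their direction with most members. The levels of col-118 were 15.5 and 13.9 CPM in wild type, 20.3 and 25.7 in daf-2, 26.5 and 23.2 in hel-1, and 15.9 and 13.2 in hel-1;daf-2. Those of col-153 were 3.20 and 2.39, 3.91 and 5.86, 6.73 and 5.77, and 1.83 and 2.48 CPM in the same order. The call of col-34 was lost without wild-type replicate 2, hel-1 replicate 2 or either hel-1;daf-2 library, with adjusted p up to 0.0939. That of col-118 remained only when a daf-2 library was the one left out. That of col-153 remained only without daf-2 replicate 1.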

How the results depend on the processing

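The number of col genes called moved with the test and with single libraries, and the cause was not tested unless stated. Shares in brackets are those of all genes called in the same direction and fit. Counts over leave-one-out fits ran from 3 to 99 higher in daf-2 against wild type (1.55 to 25.3%), 0 to 16 higher in hel-1 against wild type (0.0413 to 2.95%) and 0 to 88 lower in the double mutant against daf-2 (0 to 19%). For the double mutant they ran from 0 to 7 higher (0.522 to 8.57%) and 0 to 22 lower (0.495 to 7.73%) against hel-1, and from 0 to 16 higher (0.632 to 8.71%) and 0 to 1 lower (0.178 to 6.91%) against wild type. In the interaction they ran from 0 to 1 higher (0.00687 to 24.2%) and 0 to 88 lower (0.0412 to 21.6%). With no filter on low counts, the counts in the same order were 84 higher (11.6%), 10 higher (1.54%), 50 lower (2.77%), 4 higher (3%) and 15 lower (3.28%), 12 higher (3.6%), and 76 lower (5.53%). With DESeq2 they were 64 higher in daf-2 (10.8%), 5 higher in hel-1 (1.55%), 16 lower against daf-2 (1.77%), 2 higher (2.88%) and 8 lower (3.19%) against hel-1, and 34 lower in the interaction (4.21%). With only the groups compared in the fit, which leaves fewer samples, they were 3 higher in daf-2 (2.63%), 4 higher in hel-1 (1.42%), 9 higher (10.8%) and 45 lower (11.5%) against hel-1, and 13 higher against wild type (9.38%). With wild-type replicate 2 and daf-2 replicate 2 both left out, chosen after seeing the data, they were 13 higher (2.79%) and 2 lower (1.89%) in daf-2, 1 higher in hel-1 (0.18%), 10 higher (9.46%) and 47 lower (10.8%) against hel-1, and 8 higher (4.53%) and 4 lower (5.59%) against wild type. RLE scaling gave 43 higher in daf-2 (11%), 2 higher (2.75%) and 5 lower (2.83%) against hel-1, and 4 lower in the interaction (0.86%). Library totals gave 39 higher in daf-2 (16.8%), 3 lower against hel-1 (2.38%) and 1 lower in the interaction (0.459%). The replicate block gave 31 higher in daf-2 (10.6%), all among the 41, and 2 lower in the interaction (0.729%). The labels link replicates of different genotypes by number alone. Over all tested genes, the deviations of same-numbered libraries had a correlation of -0.448 between wild type and daf-2, and of -0.00853 to 0.157 between the other pairs of genotypes. Over the tested col genes, Spearman correlations of the replicate differences ran from -0.64 (wild type and daf-2) to 0.47 (wild type and hel-1). Of the 8 libraries, 4 matched best with their own number. col-99 in daf-2 turned to -0.23 without wild-type replicate 2, -0.12 without daf-2 replicate 2 and -0.44 without both, and ran from -0.23 to 0.47 over the leave-one-out fits. col-120 turned to -0.015 without both and ran from 0.31 to 3.57. Depth limits the members under 1 CPM.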
